A study of Bos taurus with 6 samples.

Results

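The myosin heavy chain genes form the motor of muscle and nonmuscle cells, and 9 of them (MYH1, MYH2, MYH3, MYH6, MYH7, MYH8, MYH9, MYH10 and MYH11) were taken by symbol from the 23015 rows of the count tables. Each symbol was found once, and all 9 passed the filter on low counts, with no fewer than 227 counts in any library. The tables come from longissimus thoracis (LT), the rib-eye muscle of the back, of 6 Hanwoo (Korean native cattle) steers on commercial feed, with a single 3′ mRNA library per steer. The high-NFMP group, with a high number of fine marbling particles (the small flecks of fat seen in a cut of beef), held steers 3-8, 10-8 and 10-9, aged 32.5, 33.8 and 34.5 months. The low-NFMP group held steers 3-1, 3-3 and 10-16, aged 37.8, 33.7 and 35.4 months. The steers were selected by measured NFMP, and the labels name no treatment. Library totals lay between 16283873 and 17192750 counts.

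Every myosin heavy chain gene encodes a motor head and a long tail, and the tails of the muscle forms assemble into the thick filament of the sarcomere. A muscle fibre is typed by the chain it carries. MYH7 marks slow, fatigue-resistant type I fibres, MYH2 marks fast oxidative type IIa fibres, and MYH1 marks fast, more glycolytic type IIx fibres. MYH3 and MYH8 are the embryonic and perinatal chains of developing and regenerating fibres, and MYH6 is the alpha chain of the heart. MYH9 and MYH10 are the nonmuscle chains of the cytoskeleton of most cells, and MYH11 is the chain of smooth muscle, found in muscle tissue mainly in vessel walls. By RefSeq's gene order in ARS-UCD2.0, a cattle assembly, MYH8, MYH4, MYH1, MYH2 and MYH3 lie in this order in a cluster, and MYH7 and MYH6 lie side by side. No coordinates are given, as the study aligned to a different assembly.

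The 3 adult skeletal chains made up nearly all of the family's reads, between 97.3% and 98.3% of the counts of the 9 genes in each steer. Their mix varied widely from steer to steer and overlapped between the groups. The MYH1 share of the summed MYH1, MYH2 and MYH7 counts was 48.2%, 44.3% and 26.2% in high-NFMP steers 3-8, 10-8 and 10-9, against 43.7%, 54.5% and 24.5% in low-NFMP steers 3-1, 3-3 and 10-16. Each group thus held 1 steer with a low type IIx share (10-9 and 10-16) and 2 with a far higher one. The MYH2 share was highest in those same steers 10-9 and 10-16, at 35.2%, 34.0% and 46.6% (high NFMP) against 38.5%, 28.9% and 55.2% (low NFMP). The slow chain MYH7 had the smallest share in 5 of 6 steers, at 16.6%, 21.7% and 27.2% (high NFMP) against 17.7%, 16.6% and 20.3% (low NFMP). Its share exceeded that of MYH1 only in steer 10-9. These are shares of reads in a 3′ method, in which reads gather at the end of a transcript, and they were not divided by transcript length. An exact 95% binomial interval (Clopper-Pearson) around a single share reached at most 0.229 percentage points to either side and covers counting error only.

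**Figure D1:**
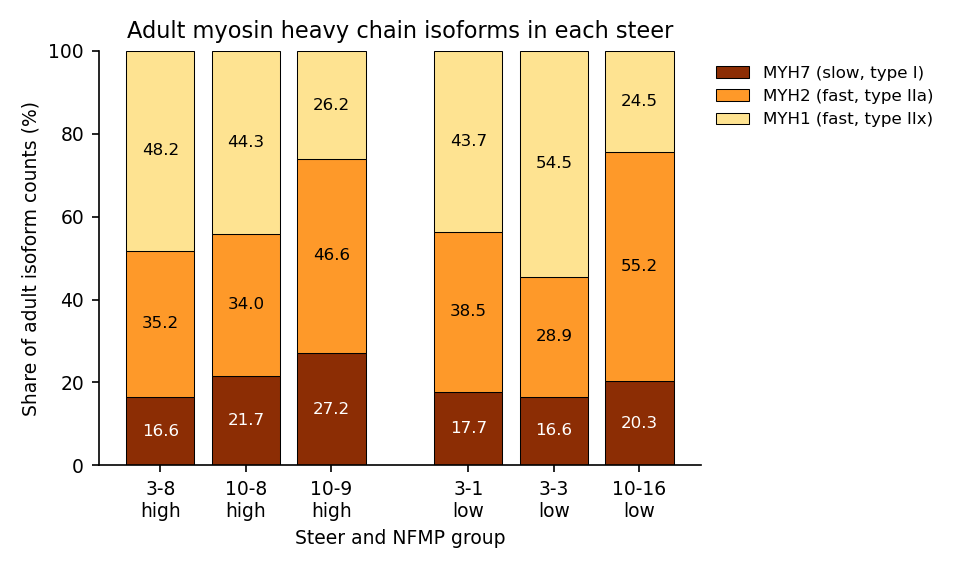
Stacked bars show the share of summed MYH7, MYH2 and MYH1 counts (%, vertical axis, from 0) in each steer (horizontal axis, with its NFMP group), with the share printed in each segment. The MYH1 share is lowest in 1 steer of each group, at 26.2% in 10-9 and 24.5% in 10-16, and the MYH7 share ranges from 16.6% to 27.2%.

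Between high and low NFMP the mean MYH1 and MYH2 shares differed by less than the SD of either group. The mean MYH7 share differed by less than the high-NFMP SD but by more than the low-NFMP SD. The mean MYH1 share was 39.6% ± 11.8 (SD, n = 3) against 40.9% ± 15.2 (SD, n = 3), a difference of -1.35 percentage points (exact two-sided permutation p = 1). For MYH2 it was 38.6% ± 6.96 against 40.9% ± 13.3, a difference of -2.22 points (exact permutation p = 0.8). The MYH7 share was 21.8% ± 5.31 against 18.2% ± 1.92, a difference of 3.57 points (exact permutation p = 0.4). With 3 steers against 3 this test cannot give a p below 0.1, so no call could come from it at this group size. Among steers whose label begins with 3 (the meaning of that number is not given), the differences (high minus low) were -0.93 points for MYH1, 1.53 for MYH2 and -0.60 for MYH7, and among those whose label begins with 10 they were 10.8, -14.8 and 4.06. These within-label values rest on 3 steers each, and all 3 differences had opposite signs in the 2 sets.

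As a ratio within a library, which does not depend on its depth, fast to slow reads ((MYH1 + MYH2)/MYH7) stood at 5.04, 3.62 and 2.68 (high NFMP) against 4.64, 5.02 and 3.91 (low NFMP). The groups overlapped, since steer 3-8 had the highest ratio of all. On the log2 scale the difference, high minus low, was -0.30 (exact permutation p = 0.5), and -0.28 for MYH2/MYH7 alone (exact permutation p = 0.2). MYH1/MYH2, the balance of the 2 fast chains, ran from 0.444 in steer 10-16 to 1.89 in steer 3-3, both of the low-NFMP group, and its log2 mean differed between groups by 0.02 (exact permutation p = 1). By reads, MYH2 was above MYH7 in each of the 6 libraries, by 1.57 to 2.71 times.

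The family as a whole held 1.15%, 1.68% and 1.27% of all counts (high NFMP) against 1.21%, 1.53% and 1.42% (low NFMP). The groups overlapped, with a difference of -0.02 percentage points (exact permutation p = 0.9). As a check of the tissue, the skeletal fibre markers ACTA1, CKM, MB, TTN, DES, NEB and ENO3 were all tested, with log2 fold changes between -0.18 and 0.39 and no p below 0.05 (edgeR). ACTA1, skeletal alpha actin, stood at 261481, 495948 and 360943 normalized counts (high NFMP) against 249724, 301175 and 385164 (low NFMP).

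Levels are given next as normalized counts, counts scaled by trimmed mean of M-values (TMM) factors to a common library size, always in the order 3-8, 10-8 and 10-9 (high NFMP) against 3-1, 3-3 and 10-16 (low NFMP). Fold changes are log2 values of high over low with their standard error (SE), from the quasi-likelihood test of edgeR over all tested genes, and adjusted p-values are by Benjamini-Hochberg. MYH7 stood at 30653, 65355 and 56592 normalized counts against 34478, 38331 and 49409. The lowest of the 6 libraries was thus a high-NFMP steer, and the other 2 high-NFMP steers lay above all 3 low-NFMP steers. The log2 fold change was 0.32 ± 0.27 (SE; adjusted p = 0.682, edgeR), a fold of 1.25 with a 95% interval from 0.839 to 1.86. Without steer 3-8 the log2 fold change was 0.58, with an unadjusted p of 0.0179 and an adjusted p of 0.242 by edgeR, and with the first label number as a term it was 0.03. MYH2 stood at 65236, 102766 and 97143 against 74974, 66673 and 133957, so that the highest level of all was in the low-NFMP steer 10-16. For MYH2 the fit gave -0.06 ± 0.28 (SE; adjusted p = 0.956, edgeR). MYH1 stood at 89249, 133714 and 54522 against 85096, 125924 and 59441, and in each group the steers lay far apart. For MYH1 the fit gave 0.04 ± 0.34 (SE; adjusted p = 0.978, edgeR), with a fold interval from 0.617 to 1.71.

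Among the 147 genes with a mean of at least 10000 normalized counts, MYH1 had the 6th largest spread between steers of one group, with a within-group SD of 0.60 on the log2 scale, where the median of these genes was 0.28. MYH2 and MYH7 came 16th and 17th, with SDs of 0.46 and 0.45. The highest steer exceeded the lowest by 2.45 times for MYH1, 2.05 times for MYH2 and 2.13 times for MYH7. In bulk tissue, fewer fibres of a type and less RNA per fibre cannot be told apart.

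**Figure D2:**
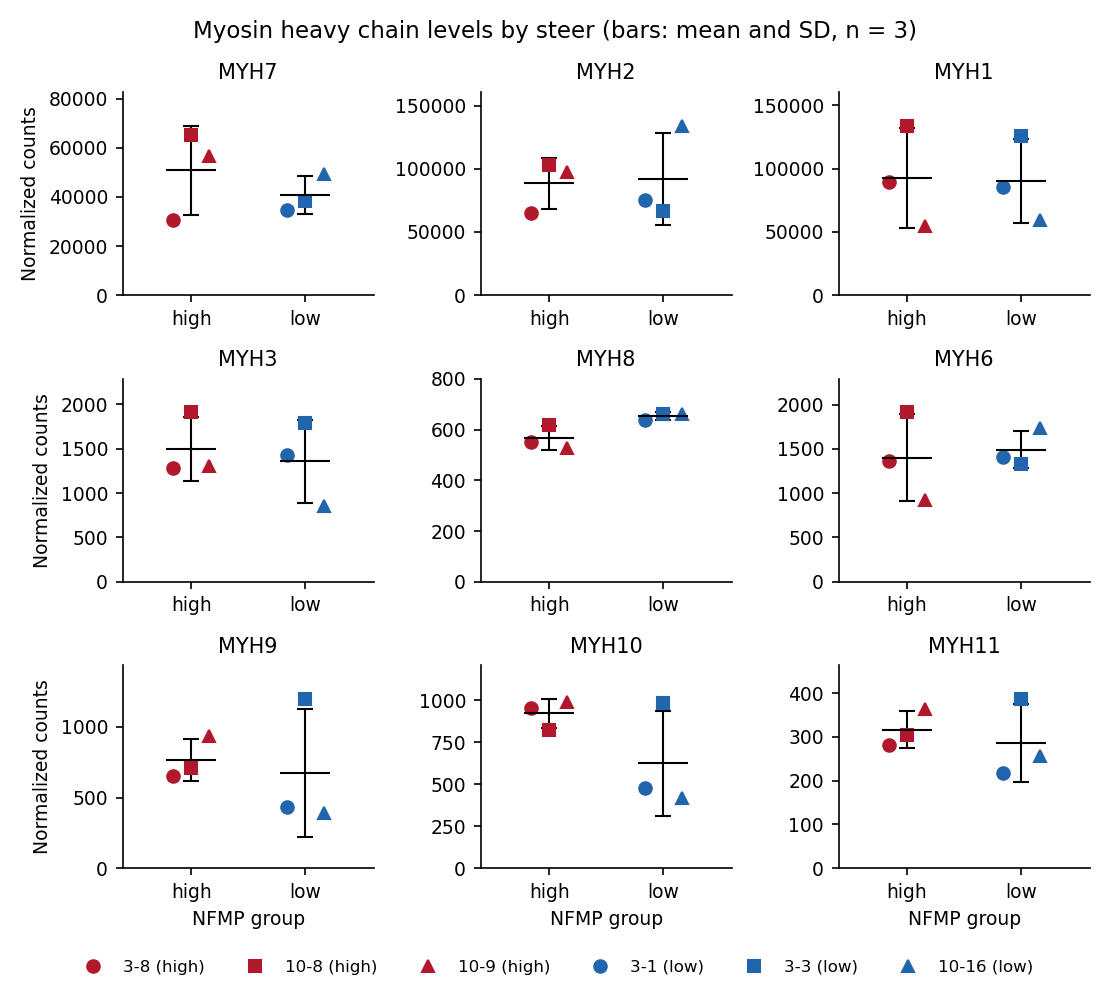
Normalized counts (vertical axis, from 0) of the 9 genes in each steer, by NFMP group (horizontal axis), with 1 symbol per steer and bars for the mean and SD of 3 steers. The groups overlap for 8 of the 9 genes, and for MYH8 the 3 high-NFMP steers all lie below the others.

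The developmental and cardiac chains were minor, and together MYH3, MYH6 and MYH8 held between 1.29% and 1.75% of the family's counts. MYH8, the perinatal chain, stood at 552, 620 and 529 normalized counts against 637, 662 and 662. It was the 1 member of 9 (11.1%) whose groups did not overlap, where 17.1% of all 15039 tested genes did not, and 9.16% with the high-NFMP group lower. The fit gave -0.21 ± 0.18 (SE; adjusted p = 0.687, edgeR), and the sign was negative under all 14 alternative settings, from -0.28 to -0.14. MYH8 was also the steadiest member, with 1.25 times between its highest and lowest steer. MYH3, the embryonic chain, stood at 1281, 1909 and 1303 against 1428, 1789 and 859, with overlapping groups and a fitted value of 0.14 ± 0.26 (SE; adjusted p = 0.865, edgeR). MYH6 stood at 1368, 1914 and 926 against 1413, 1333 and 1732, and both its extremes were high-NFMP steers. The fitted value was -0.09 ± 0.24 (SE; adjusted p = 0.908, edgeR). Beside these chains, 2 of the 4 tested genes of the list for regenerating fibres and satellite cells (the stem cells of muscle) passed the study's threshold (an unadjusted p below 0.05 with a fold above 2) as lower at high NFMP, where 1.36% of all tested genes did. They were MYOG, a transcription factor of muscle differentiation, with a log2 fold change of -1.13 (adjusted p = 0.186 by edgeR), and MYMK, a membrane protein of myoblast fusion, with -1.41 (adjusted p = 0.349). MYOG was at 1607 and 1599 normalized counts in steers 3-1 and 3-3 and between 515 and 623 in the other 4 steers, 10-16 included. MYMK was low in all steers, between 6.08 normalized counts (3-8) and 32.5 (3-1), and its groups did not overlap. The other 2 tested genes of the list, NCAM1 and MYOD1, were at 0.24 and -0.23 (unadjusted p = 0.445 and 0.680 by edgeR). The list named 7 genes, of which 6 were found in the tables and 4 were tested. PAX7, MYF5 and CHRNG were not among the tested genes. Of the cardiac markers, TNNI3 (cardiac troponin I) stood at 58.8, 41.1 and 30.1 against 25.8, 13.0 and 30.3, TNNT2 was under the filter, and NPPA and NPPB were not found in the tables.

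The counts of MYH3 closely followed those of a further family gene, MYH4, the type IIb chain, which lies between MYH8 and MYH1 in the cluster. MYH3 and MYH4 were counted 1264 and 1261 times in steer 3-8, 1718 and 1716 times in 10-8, 1492 and 1514 times in 3-1, and 1933 and 1951 times in 3-3. In these 4 steers the ratio of the 2 genes was between 0.985 and 1.00, whereas it was 1.19 in steer 10-9 (1299 and 1094) and 0.809 in steer 10-16 (851 and 1052), the 2 steers with the lowest MYH1 share. The ratios of the groups did not overlap, with high NFMP above (exact permutation p = 0.1, the smallest it can give), by very little except in 10-9 and 10-16. This ratio was not among the planned comparisons, so its p is given as a description only. MYH4 counts were between 1.43% and 2.01% of MYH1 counts. MYH3 counts were 1.44%, 1.43% and 2.39% of MYH1 counts (high NFMP) against 1.68%, 1.42% and 1.45% (low NFMP). The study compared genes by counts from unique and multiple alignments, and the number of reads counted on more than 1 of these similar genes was not measured. Over the 6 libraries, MYH4 and MYH1 had a Pearson r of 0.97 (exact permutation p = 0.0167, adjusted p = 0.325 over 78 pairs of family genes) and a Spearman rho of 0.89 (exact permutation p = 0.0333), and r was 0.95 without the 2 steers farthest from the median MYH1 level. MYH3 and MYH4 had an r of 0.91 (exact permutation p = 0.00694, adjusted p = 0.289), a rho of 0.94 (exact permutation p = 0.0167) and an r of 0.93 without the 2 farthest steers. MYH1 and MYH3 had an r of 0.83 (exact permutation p = 0.05, adjusted p = 0.776) and a rho of 0.71 (exact permutation p = 0.136). Their r was 0.97 without the 2 farthest steers. No pair among the 78 had an adjusted p below 0.289.

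The nonmuscle and smooth muscle chains MYH9, MYH10 and MYH11 held between 0.429% and 1.08% of the family's counts and had their lowest levels in steers 3-1 and 10-16. MYH10, nonmuscle chain B, stood at 954, 823 and 986 normalized counts against 475, 982 and 415. The low-NFMP steer 3-3 lay within the range of the high-NFMP group, and the other 2 were well below it. With a log2 fold change of 0.56 ± 0.28 (SE), a fold of 1.48 with an interval from 0.964 to 2.26, MYH10 had the smallest p of the 9 members, 0.0699 unadjusted and 0.483 adjusted by edgeR. Without steer 3-3 its log2 fold change was 1.05, with an unadjusted p of 0.000407 by edgeR that passed the threshold of the study and an adjusted p of 0.106 that did not pass 0.05. With age as a term it was 0.23 (unadjusted p = 0.442, adjusted p = 0.854 by edgeR). The 2 steers with low MYH10, 3-1 and 10-16, were also the 2 oldest, at 37.8 and 35.4 months. Both were of the low-NFMP group, so age and NFMP cannot be fully told apart in these steers. A part of age in the MYH10 level was not tested. MYH9, nonmuscle chain A, stood at 652, 708 and 938 against 433, 1197 and 389, so that steer 3-3 was the highest and the other 2 low-NFMP steers were the lowest. The fit gave 0.19 ± 0.41 (SE; adjusted p = 0.896, edgeR), and without steer 3-3 it was 0.90, with an unadjusted p of 0.00253 and an adjusted p of 0.232 by edgeR. MYH11 stood at 281, 304 and 363 against 217, 387 and 255, with steer 3-3 again highest and a fitted value of 0.14 ± 0.24 (SE; adjusted p = 0.851, edgeR).

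The 3 chains put the 6 steers in similar orders, though no correlation passed the adjustment. MYH9 and MYH11 had a Pearson r of 0.94 (exact permutation p = 0.0111, adjusted p = 0.289 over the 78 pairs) and a Spearman rho of 0.94 (exact permutation p = 0.0167), and r was 0.999 without the 2 steers farthest from the median. MYH9 and MYH10 had an r of 0.90 (exact permutation p = 0.00833, adjusted p = 0.289), a rho of 0.89 (exact permutation p = 0.0333) and an r of 0.90 without the 2 farthest steers. MYH10 and MYH11 had an r of 0.82 (exact permutation p = 0.0736, adjusted p = 0.776) and a rho of 0.83 (exact permutation p = 0.0583), and r was 0.52 without the 2 farthest steers. Markers of the cell types that carry these chains were read beside them. The 9 smooth muscle and pericyte markers summed to 2684, 3456 and 3848 normalized counts against 2518, 3084 and 2497, so the 2 low-NFMP steers with the lowest MYH9 and MYH10 also had the lowest sums of this list. Its members did not all share that order: RGS5 was highest in 3-1 (90.9), TAGLN and CSPG4 were the 2nd highest there (199 and 126), and MYOCD was highest in 10-16 (241). PDGFRB and LMOD1 were lowest in those 2 steers, at 291 and 338 in 3-1 and 316 and 421 in 10-16. CNN1 and SMTN were lowest in the high-NFMP steer 3-8 (113 and 431). ACTA2 was lowest in 10-16 (619) and next lowest in 3-8 (687). The 6 leukocyte markers summed to 945, 658 and 643 against 511, 870 and 537, lowest in the same 2 steers, 3-1 and 10-16, although CD163 was lowest in 10-8 (66.7). C1QA was the only gene of that list with an unadjusted p below 0.05 (log2 fold change 0.73, adjusted p = 0.377 by edgeR). Other lists had a different order. The 6 endothelial markers summed to 1518, 996 and 1289 against 1291, 1266 and 1021, with the lowest sum in the high-NFMP steer 10-8. The 6 fibroblast markers summed to 12483, 15148 and 12055 against 9333, 11725 and 12313, lowest in 3-1 but higher in 10-16 than in 3-3. DCN, a matrix proteoglycan, gave between 5432 and 8703 of each sum, and PDGFRA, the only gene of the list with an unadjusted p below 0.05, was lower at high NFMP without overlap (log2 fold change -0.51, adjusted p = 0.408 by edgeR). All 6 adipocyte markers had a positive log2 fold change, between 0.47 and 0.89, and their sum was 8487 in steer 3-8 and between 2547 and 3733 in the other steers. FABP4, a fatty acid carrier, gave 4945 of the 8487 in 3-8. The positive values of FABP4, LEP and PLIN1 rested on that steer: in 10-8 and 10-9 FABP4 was at 1618 and 1019 against 1617, 2044 and 1294, LEP at 47.8 and 52.2 against 63.2, 75.9 and 73.7, and PLIN1 at 213 and 128 against 169, 237 and 125. CIDEC, ADIPOQ and CIDEA were 3 of the 6 with an unadjusted p below 0.05 (0.00615, 0.0141 and 0.0367 by edgeR, where 11.5% of all tested genes passed), and their groups did not overlap, with high NFMP above. None of the 6 passed a fold of 2 or an adjusted p of 0.05. Every marker of these lists was found in the tables and passed the filter on low counts. The part of these cells in the levels of MYH9, MYH10 and MYH11 was not tested.

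Levels of overlapping genes were read too, because the strand setting of the counting is unknown. In ARS-UCD2.0 MYH11 overlaps NDE1, a dynein regulator, which stood at 224, 241 and 311 normalized counts against 184, 332 and 190. NDE1, like MYH11, was highest in steer 3-3 and lowest in steers 3-1 and 10-16. MYH10 overlaps NDEL1, the related dynein regulator, which stood at 681, 620 and 585 against 569, 765 and 801 and had its highest level in steer 10-16, where MYH10 was lowest. LOC112442832, which also overlaps MYH10, did not pass the filter on low counts. How many reads were counted on both genes of a pair was not measured.

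Over the whole family, none of the 9 genes passed the threshold of the study in the edgeR fit, where 3.9% of the 15039 tested genes did (2.53% higher and 1.36% lower at high NFMP). None had an adjusted p below 0.05 either, which 0.685% of all tested genes had, and 0 of the 9 had an unadjusted p below 0.05, which 11.5% of all tested genes had (edgeR). DESeq2 and the quantile normalization with limma also called 0 of the 9, though MYH10 had an unadjusted p of 0.0333 with limma, 0.0411 with edgeR without a filter and 0.0300 with edgeR and the first label number as a term, each at a fold under 2. The log2 fold changes ran from -0.21 (MYH8) to 0.56 (MYH10), 6 positive and 3 negative, with a median of 0.14, and the median of all tested genes was 0.02. In this fit, for 7 of the 9 genes the 95% interval lay within a fold of 2 in both directions. The exceptions were MYH9 and MYH10, whose intervals reached 2.19 and 2.26 times higher in the high-NFMP group.

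**Figure D3:**
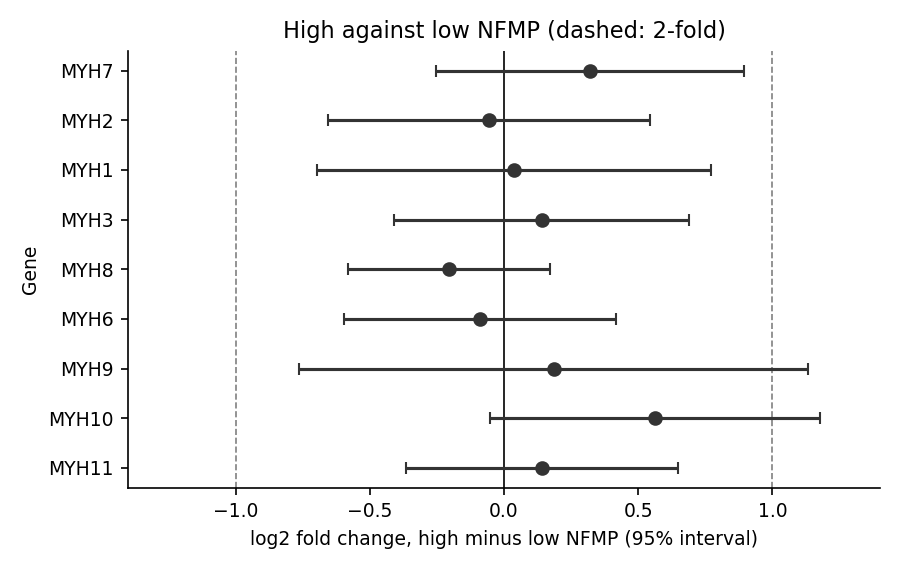
Points show the log2 fold change, high minus low NFMP (horizontal axis), of each of the 9 genes (vertical axis) from edgeR's quasi-likelihood fit of 3 against 3 steers, with lines for the 95% interval and dashed lines at a fold of 2. All 9 intervals include 0, and those of MYH9 and MYH10 reach past the dashed line on the right.

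Further MYH genes in the tables were MYH4, MYH7B, MYH14 and MYH15, and MYH13 and MYH16 were not found there. MYH7B, a slow-tonic chain that hosts a muscle microRNA, stood at 926, 646 and 469 normalized counts against 790, 574 and 789. MYH14, nonmuscle chain C, stood at 225, 349 and 445 against 338, 294 and 345, and MYH15 was counted between 9 and 32 times. None of the 4 passed the threshold, with log2 fold changes of -0.01 (MYH4), -0.08 (MYH7B), 0.06 (MYH14) and -0.51 (MYH15) and the smallest unadjusted p at 0.326 by edgeR.

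Myosin works with light chains, filament partners, folding chaperones and the regulators that set fibre type, and 71 such genes were read in 10 lists. Of the 69 that were tested, edgeR called 1 higher at high NFMP and 0 lower (1.45%, against 3.9% of all tested genes), 8 had an unadjusted p below 0.05 (11.6%, against 11.5% of all), none had an adjusted p below 0.05 in this fit, and their median log2 fold change was 0.06. The called gene was PVALB, parvalbumin, a calcium buffer of fast fibres, at 52.7, 55.6 and 18.1 normalized counts against 22.0, 14.8 and 15.1. Steer 10-9 lay within the range of the low-NFMP group, and the log2 fold change of 1.27 had an adjusted p of 0.322 by edgeR. PVALB was no longer called without steer 3-8, 10-8 or 3-3, or with age as a term.

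Regulators of fibre type held 4 of the 8 genes with an unadjusted p below 0.05, out of 18 tested, where 11.5% of all tested genes passed (edgeR). None of the 4 was past a fold of 2, and the median log2 fold change over the list was -0.04. PROX1, a homeobox factor linked to the slow fibre programme, stood at 817, 718 and 873 normalized counts against 429, 482 and 470, with no overlap. PROX1 had a log2 fold change of 0.80 ± 0.18 (SE; adjusted p = 0.0635, edgeR), and its adjusted p was 0.00739 by DESeq2 and 0.0393 by edgeR without a filter on low counts. By edgeR the adjusted p of PROX1 was 0.131 with library totals alone and 0.101 with the first label number as a term. PPARGC1A encodes PGC-1alpha, the coactivator of mitochondrial biogenesis and of oxidative fibres, and stood at 2850, 5121 and 4058 against 2850, 1730 and 1764. The lowest high-NFMP steer and the highest low-NFMP steer met at 2850, and the log2 fold change was 0.92 (adjusted p = 0.145). VGLL2, a cofactor of TEAD factors, had 0.73 (adjusted p = 0.186) with overlapping groups, and SIX4, a homeobox factor linked to fast fibres, had -0.44 (adjusted p = 0.435). Without steer 3-8 or 3-1, and with age as a term, PPARGC1A passed the fold limit, and its adjusted p was 0.0294 by DESeq2 and 0.0439 by edgeR without that filter. The adjusted p of PPARGC1A was 0.152 by edgeR with library totals alone and 0.125 by limma.

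Slow fibre genes had values of both signs. MYL3, the slow essential light chain, stood at 3009, 3233 and 3395 normalized counts against 6326, 6409 and 3799. The groups did not overlap, with MYL3 lower at high NFMP at a log2 fold change of -0.78 ± 0.21 (SE; adjusted p = 0.145, edgeR), whereas MYH7 had a positive value in the same fit. The adjusted p of MYL3 was 0.0403 by DESeq2 and 0.0487 by edgeR without a filter. Together with PROX1 and PPARGC1A it made 3 of the related genes with an adjusted p below 0.05 in those 2 settings. Both settings also passed more genes of every kind, with 291 of 15039 below that limit by DESeq2 and 240 of 23015 by edgeR without a filter. By edgeR with the default filter 103 of 15039 genes were below it, and none of the related genes was. MYL6B, a further essential light chain, was at -0.36 (adjusted p = 0.825). MYL2, of the same list of slow light chains, had a positive value of 0.13 (adjusted p = 0.874 by edgeR). MYL2 had far more counts than MYL3, at 61553, 87864 and 56227 normalized counts against 54130, 50481 and 83290. The 8 other slow fibre genes had log2 fold changes between -0.25 (ATP2A2, the slow calcium pump) and 0.22, with TNNT1, slow troponin T, at 0.20, and none had an unadjusted p below 0.05. Of the fast fibre genes, only PVALB had an unadjusted p below 0.05 by edgeR. The fast light chains MYLPF and MYL1 were at 0.11 and 0.05, and TNNT3, fast troponin T, was at 0.42 (adjusted p = 0.562). The 9 other fast fibre genes, PVALB included, had positive values in this fit, with a median of 0.24. Signs in that list turned under other settings: with the first label number as a term CASQ1, MYOZ1, ATP2A1 and TNNC2 were between -0.080 and -0.0096, and TNNC2 was at -0.063 with library totals alone, -0.038 with limma and -0.070 with age as a term. Some fits without a single steer also gave these 4 genes values below 0.

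Among the 9 thick filament partners, with a median log2 fold change of -0.01, MYBPH, a myosin binding protein, was at -0.76 (adjusted p = 0.452 by edgeR). MYL9, the regulatory light chain of smooth muscle and nonmuscle myosin, stood at 334, 456 and 421 normalized counts against 323, 283 and 238, without overlap, with a log2 value of 0.52 (unadjusted p = 0.0252, adjusted p = 0.354). MYL12B, a nonmuscle light chain, was at 0.29 (adjusted p = 0.684). Of the light chain kinases and phosphatase genes, MYLK, the smooth muscle kinase, was at 0.26 (adjusted p = 0.628) and ROCK2, a kinase that raises light chain phosphorylation, at -0.37 (adjusted p = 0.532), in a list of 9 with a median of -0.02. Among the 6 folding chaperones, HSP90AB1 was at -0.29 (adjusted p = 0.624) and UNC45A, a myosin chaperone, at 0.44 (adjusted p = 0.673). MYL5 was the only tested gene of the 3 embryonic and atrial light chains, with 0.73 (adjusted p = 0.482), since MYL4 and MYL7 did not pass the filter.

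**Figure D4:**
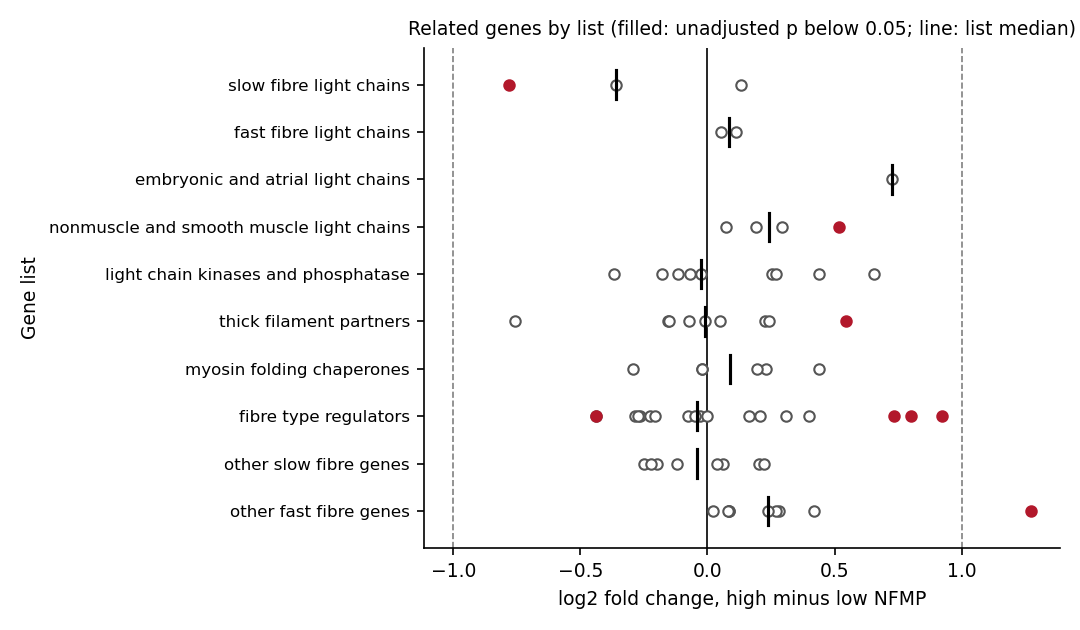
Each point is the log2 fold change, high minus low NFMP (horizontal axis), of 1 tested gene in 10 lists (vertical axis). Filled points have an unadjusted p below 0.05 by edgeR, vertical marks are list medians and dashed lines a fold of 2. The filled point past the dashed line is PVALB, at 1.27.

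The genes whose level over the 6 steers was most like that of an adult chain were sought among 8717 genes with a mean of at least 100 normalized counts, by Pearson r of log2 levels. The values of r are the highest of many over 6 libraries and are given as a description. For MYH7 the 5 closest were CS (citrate synthase, the entry enzyme of the citric acid cycle), GLYR1, DGAT1 (which makes triglyceride), DNAJC11 (a mitochondrial protein) and HSF1 (the heat shock factor), with r from 0.988 to 0.991 and the same order of the 6 steers as MYH7 in each. DGAT1 and HSF1 overlap in ARS-UCD2.0 and had nearly the same counts. CS stood at 2786, 3884 and 3804 normalized counts against 2961, 3191 and 3523, a range of 1.39 times where MYH7 ranged over 2.13 times. As many as 58 genes had an r of at least 0.95 with MYH7, against 8 with MYH2 and 4 with MYH1. The closest to MYH2 were FYCO1, GPR160, NAA20, PRPS1 and LIN7B, with r from 0.960 to 0.975, and those closest to MYH1 were LOC107132618, BAZ2B, CFI, AOX1 and COL3A1 (a fibrillar collagen), with r from 0.947 to 0.976. The 6 points of each r share the normalization of their library.

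**Figure D5:**
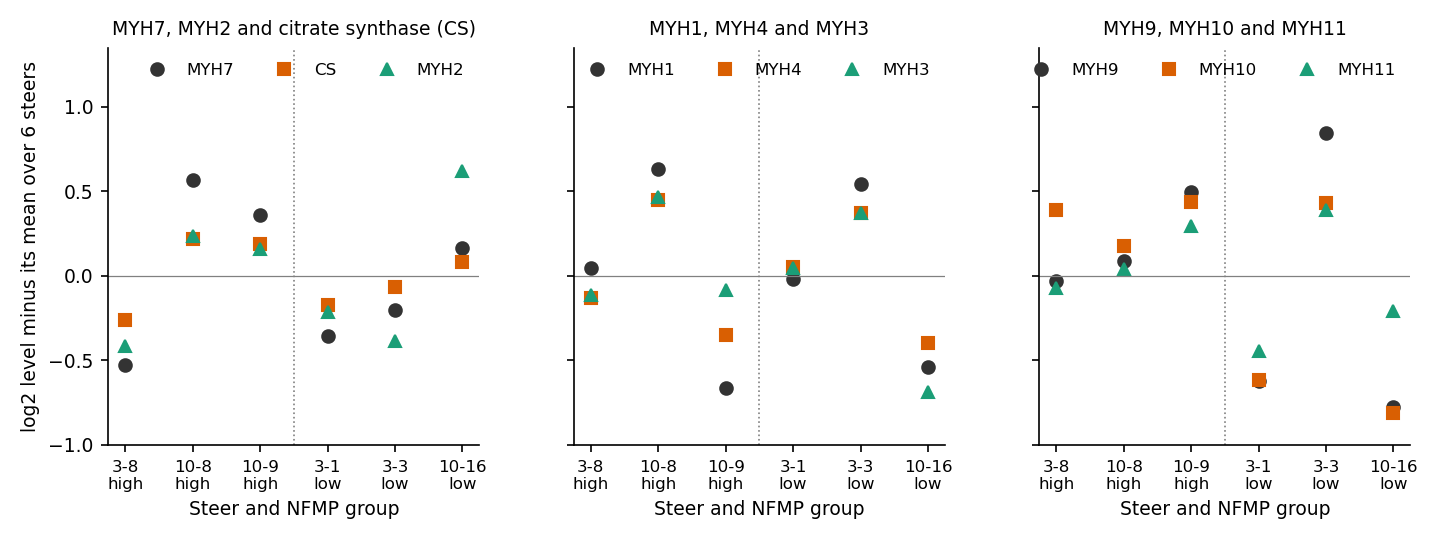
The log2 level of each gene minus its mean over the 6 steers (vertical axis) is plotted by steer and NFMP group (horizontal axis) for MYH7, CS and MYH2, for MYH1, MYH4 and MYH3, and for MYH9, MYH10 and MYH11. MYH7 and CS put the steers in the same order, and MYH9, MYH10 and MYH11 are all lowest in the 2 low-NFMP steers 3-1 and 10-16.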

How the data were processed

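RNA of LT muscle from 6 steers was sequenced from the 3′ end, and the authors deposited raw counts of reads by gene symbol. Their methods name Tophat2 with HTSeq in one place and Bowtie2 with unique and multiple alignments in another, and the labels list Bowtie2 and bedtools. The sources used here do not say which made these counts or how strand was treated. Of the 23015 rows, 176 repeat a symbol (no member).

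The members and lists were chosen with earlier results of these data known. R 4.3.3 with edgeR 4.0.16 served for the fit (default filter, minimum count 10 and total 15; TMM factors; robust quasi-likelihood test over 15039 rows; Benjamini-Hochberg adjustment), and calls used the threshold of the study, an unadjusted p below 0.05 with a fold above 2. Shares and ratios were compared by two-sided exact permutation tests. Replicates are separate steers. Named genes were the members, other MYH genes, called list genes, the 2 smallest p of each list, and the 5 genes most like each adult chain. A further gene that this rule names is not reported here. The marker genes given with values, MYL2, 4 fast fibre genes that changed sign and the overlapping genes were picked once their values had been seen. Ratios of MYH3 and MYH4 counts were not among the planned comparisons. Alternatives were other filters, RLE factors, library totals, DESeq2 1.42.0, quantile normalization of log2(count + 1) with limma 3.58.1 (the normalization of the study's methods), label number or age as a term, and leaving out single steers. The fit was tested on simulated counts. Without molecular identifiers, reads are not independent molecules, so intervals on shares cover counting error only.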

Additional observations from a re-analysis of the deposited data

How the results depend on the processing

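Of 126 values of the members' log2 fold changes under alternatives, 107 kept their direction and stayed below the threshold, 1 passed it (MYH10 without steer 3-3) and 18 changed sign. With library totals alone MYH1 was at -0.069, with quantile normalization and limma at -0.17 and with age as a term at -0.22, and with age as a term MYH2 was at 0.084, MYH9 at -0.15 and MYH11 at -0.071. Leaving out 1 steer gave ranges of -0.30 to 0.35 for MYH1, -0.24 to 0.36 for MYH2, -0.071 to 0.39 for MYH3, -0.36 to 0.15 for MYH6, -0.056 to 0.90 for MYH9 and -0.026 to 0.42 for MYH11, and MYH7 (0.14 to 0.58), MYH8 and MYH10 (0.37 to 1.05) kept their sign. The count of members called was 0 to 1 in these fits, that of related genes called higher 0 to 2 and called lower 0, and with age as a term 1 related gene was called lower (MYBPH). Shares without 1 steer differed between groups by -9.57 to 5.45 percentage points for MYH1, -8.21 to 4.94 for MYH2 and 0.88 to 6.19 for MYH7, the family total by -0.18 to 0.084 points, and the log2 ratios by -0.67 to 0.19 (MYH1/MYH7), -0.55 to 0.49 (MYH1/MYH2), -0.44 to -0.12 (MYH2/MYH7) and -0.53 to -0.08 (both fast chains over MYH7). Within steers of label number 3 the MYH7 share differed by -0.60 points, log2 MYH2/MYH7 by 0.13 and log2 (MYH1 + MYH2)/MYH7 by 0.061, and within label number 10 the MYH2 share by -14.8 points, log2 MYH2/MYH7 by -0.72 and log2 MYH1/MYH2 by 0.95. The cause of these changes was not tested. Division by coding length was not run, because no protein or transcript lengths were used here, and whether counts rise with transcript length in these libraries was not tested. Genes called over the whole table numbered 586, against 969 without a filter and 364 with at least 10 counts in every library.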

Other observations

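ACTC1, cardiac alpha actin, a sarcomeric gene of developing and regenerating muscle as well as of the heart, had the widest range among the genes read beside the cardiac chain MYH6. It stood at 492, 8479 and 12344 normalized counts in the high-NFMP steers 3-8, 10-8 and 10-9 and at 258, 5698 and 371 in the low-NFMP steers 3-1, 3-3 and 10-16, which is 47.8 times between the highest and the lowest steer. The 3 steers with high ACTC1 were of both groups, and the log2 fold change of 1.75 had an adjusted p of 0.768 by edgeR. Neither MYH3 nor MYH8 nor MYH6 was highest in the steer with the highest ACTC1, 10-9, where MYH8 and MYH6 had their lowest levels. ACTC1 is similar in sequence to ACTA1, and how many reads matched both was not measured.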
